A study of Ciona robusta with 133 samples.

Results

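A5.1 and a5.3 are 2 blastomere types of the 16-cell embryo of the ascidian Ciona robusta, named after Conklin's cell lineage. A5.1 belongs to the anterior vegetal A line and a5.3 to the anterior animal a line, and both lines contribute to the larval nervous system. The comparison took every library labelled A5.1 and every library labelled a5.3. These came to 14 of the 133 libraries of the series and to 2 of its 19 cell types. Each of these 14 libraries holds the amplified cDNA of 1 cell isolated by hand. The neural plate types described later carry labels of cell pairs, such as A9.9+A9.10. The 7 A5.1 cells came from embryos 1, 3, 4, 5 and 6, and the 7 a5.3 cells came from the same 5 embryos. Both the left and the right cell of each type were taken from embryos 5 and 6. Embryos 1 and 4 gave a right cell of each type, and embryo 3 gave a left A5.1 and a right a5.3 cell. The embryos carried no treatment or genetic change that the labels name. The counts of cells of 1 type and embryo were summed, so n below counts embryos and each embryo gave 1 pair.

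In ascidian embryos the division pattern is invariant and most cells are assigned to few tissues early. Vegetal cells accumulate nuclear beta-catenin, while animal cells rely on maternal GATA activity, and zygotic transcription of lineage regulators starts against a large background of maternal RNA that both lines inherit from the egg. A5.1 divides into A6.1, a mother of endoderm, and A6.2, the mother of notochord and posterior neural cells. The a5.3 cell divides into a6.5, which forms anterior neural tissue after induction by vegetal FGF, and a6.6, which forms epidermis.

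The deposited table identifies genes by KH gene model numbers only, and none of them was found in the gene table used here. No gene name, function or marker could therefore be attached to a value, the cell type labels could not be checked against marker genes, and genes are given by identifier. Levels are CPM, read counts relative to the sample's total, scaled by TMM, a correction for differences in library composition, and are not divided by gene length, so levels of different genes should not be ranked against each other. They are relative to each cell's own total, since no added standard RNA is named in the labels, and a difference in total RNA between the cell types cannot be told apart from a shift of all levels.

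Libraries held between 6287481 and 14413981 counts and between 10606 and 11613 genes with a count. Total counts did not differ between types beyond the spread of the pairs (exact two-sided sign-flip permutation test, p = 0.9375, n = 5 pairs, A5.1 higher in 2). The 50 most abundant genes took 6.85% of counts in A5.1 and 6.59% in a5.3 on average, a small difference with the same sign in 5 of 5 pairs (exact p = 0.0625, the smallest that 5 pairs allow).

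Embryo 5 stood apart from the other embryos, in both cell types. Distance between libraries was taken as the mean squared log2 CPM difference over 7749 genes. Between cells of different embryos it had a median of 0.435 (range 0.340 to 0.772, 40 library pairs) when 1 of them was embryo 5, and 0.185 (0.111 to 0.407, 36 pairs) when neither was. The only a5.3 cell of embryo 3, the library with the fewest genes (10606), also stood apart. It lay 0.288 to 0.407 from cells of other embryos than 5, where no other pair passed 0.268. It also gave the highest distances with embryo 5 (0.772) and between types within an embryo (0.336). Within an embryo, the left and right cells of 1 type differed by a median of 0.161 (0.136 to 0.340, 4 pairs), and A5.1 and a5.3 by 0.178 (0.146 to 0.336, 11 pairs). Left and right pairs exist in embryos 5 and 6 only. In embryo 6 the distances between types, 0.146 to 0.178, all exceeded both left-right distances, 0.136 and 0.137, while in embryo 5 the left and right A5.1 cells lay 0.340 apart. Cells of 1 type from different embryos had a median of 0.349 (0.111 to 0.554, 38 pairs). A5.1 and a5.3 cells of different embryos had a median of 0.405 (0.150 to 0.772, 38 pairs), and 0.194 (18 pairs) with embryo 5 left out, against 0.167 (7 pairs) within the other embryos. Most of the gap between the within-embryo and between-embryo medians was thus seen with embryo 5, and a smaller gap remained without it. The plot of distances between libraries shows both patterns.

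**Figure D1:**
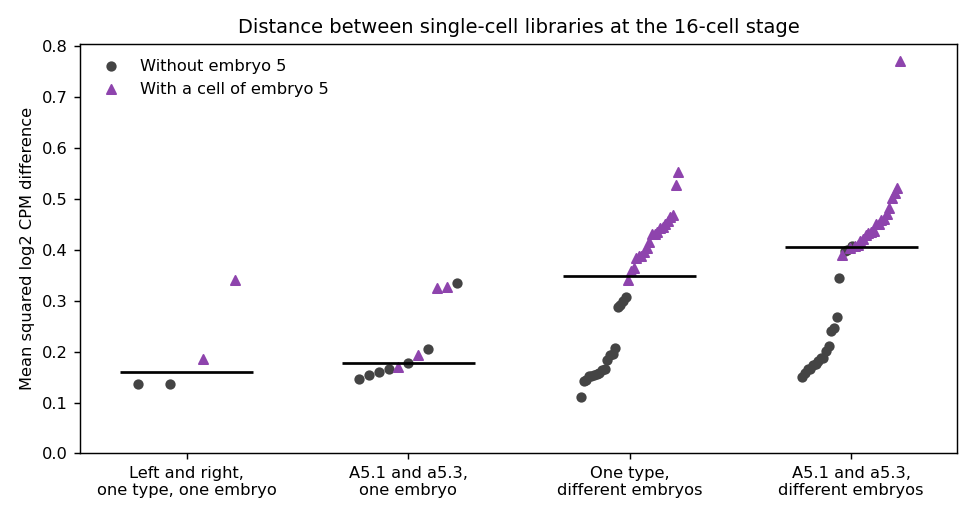
Distance between pairs of single-cell libraries at the 16-cell stage (y axis, mean squared log2 CPM difference over 7749 genes) by kind of pair; each point is 1 pair of libraries, triangles include a cell of embryo 5 and lines are medians. Pairs between embryos lie highest where embryo 5 takes part, with a median of 0.435 against 0.185 for pairs without it.

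Within embryos, the genes called between A5.1 and a5.3 ranged from scarce transcripts with large differences to abundant ones with small differences. A threshold on p favours such a range, as set out below. Of 9935 genes tested with the embryo as a block, 128 (1.29%) passed an adjusted p of 0.05 in edgeR's quasi-likelihood test. Of these, 23 (0.232% of the tested genes) had their higher level in A5.1, while 105 (1.06%) had it in a5.3. At an unadjusted p below 0.05 there were 2081 genes, split nearly evenly, with 1018 on the A5.1 side and 1063 on the a5.3 side. All 128 went one way in 5 of 5 embryo pairs, against 20.1% of all tested genes, where A5.1 had the higher level in 1080 and a5.3 in 918. The excess of a5.3 genes among the calls was thus not seen over all tested genes. In 86 of the 128 the 5 A5.1 and 5 a5.3 values did not overlap, against 3.7% of all tested genes. The median log2 fold change over all tested genes was 0.01 and the median absolute one 0.19.

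The called genes were parted at a 2-fold difference after their values had been seen, and the classes are described without a test. At or above 2-fold the median SE of the log2 fold change was 0.57 for A5.1 and 0.29 for a5.3 genes. Below 2-fold it was 0.08 and 0.11. Small differences could pass only where the SE was small, so the threshold favours large differences in scarce genes and small ones in abundant genes. Fold changes ran on across this limit without a gap among the genes higher in a5.3, of which 15 lay at or above 2-fold and 63 at or above 1.5-fold. Higher in A5.1 by 2-fold or more were 8 genes, with folds from 2.37 to 33.1 and a median of 11.4. These were scarce transcripts: their median level in A5.1 was 11.2 CPM, against 59.9 CPM for the higher cell type over all tested genes, and 7 of the 8 were under 5 CPM in a5.3. Higher in a5.3 by 2-fold or more were 15 genes, with folds from 2.01 to 180 and a median of 3.44. Their median level in a5.3 was 39.3 CPM, and 6 of the 15 were under 5 CPM in A5.1. Of these 23 large differences, 12 lay among the 2484 tested genes of lowest mean level, up to 14.2 CPM.

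The other 105 called genes differed by less than 2-fold and were abundant, and 90 of them were higher in a5.3. The 90 that were higher in a5.3 had a median fold of 1.51 (range 1.29 to 1.92) and a median level of 142 CPM there, and 77 of them lay above the median level of all tested genes. The 15 that were higher in A5.1 had a median fold of 1.31 (1.22 to 1.51) and a median level of 279 CPM there. Summed over the 90 genes, the level was 10305, 11027, 10646, 10830 and 10564 CPM in the A5.1 samples of embryos 1, 3, 4, 5 and 6, and 15684, 18165, 15264, 15358 and 14421 CPM in the a5.3 samples. The sums were higher in a5.3 in every embryo and did not overlap, as the choice of these genes entails. The TMM factor moved with the cell type as well, at a mean of 0.990 in A5.1 against 1.01 in a5.3 and lower in A5.1 in 5 of 5 pairs (exact sign-flip permutation test, p = 0.0625). Its part in the small differences was not tested. With other size factors (RLE) 97 of the 105 were called. The median log2 fold change over all tested genes was nearly the same, 0.015 with RLE and 0.012 with TMM. That count therefore does not test the part of the scaling.

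**Figure D2:**
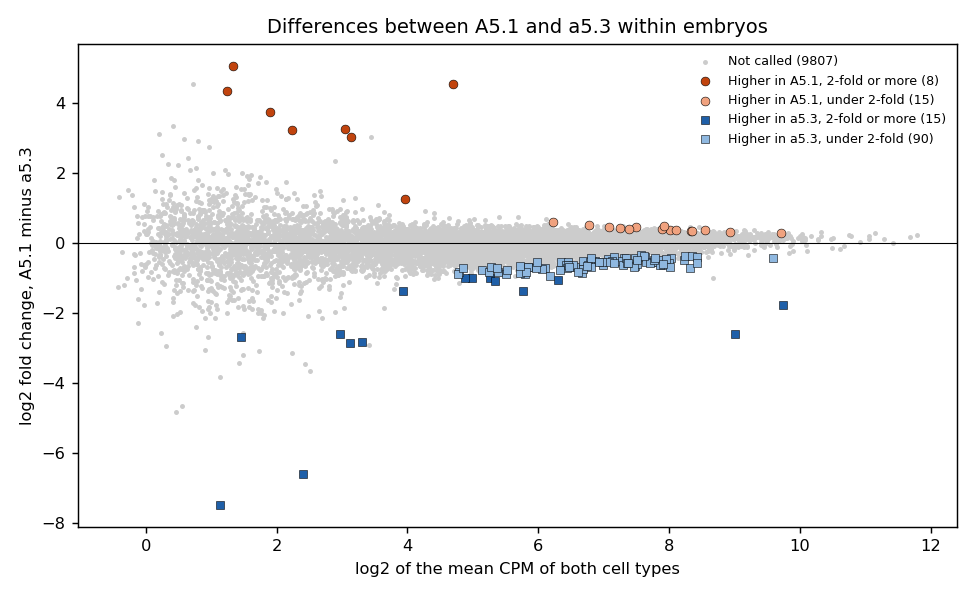
Log2 fold change of A5.1 over a5.3 within embryos (y axis) against the log2 mean CPM of both types (x axis) for 9935 tested genes; grey points were not called, circles were called higher in A5.1 and squares higher in a5.3, dark at 2-fold or more and pale below. The 90 pale squares form a band at high levels, while 12 of the 23 dark symbols sit among the least abundant genes.

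The number of calls rested on all 5 embryos and on the pairing. It was 5 without embryo 1, 49 without embryo 3, 4 without embryo 4, 28 without embryo 5 and 38 without embryo 6. Many of the 128 genes were called in none of these 5 fits. At or above 2-fold this held for 4 of the 8 A5.1 genes and 6 of the 15 a5.3 genes. Below 2-fold it held for 14 of the 15 A5.1 genes and 47 of the 90 a5.3 genes. Without the embryo block 15 genes were called, 3 of them with A5.1 and 12 with a5.3 on the higher side, and without both embryo 5 and the block 27 were called. All 128 genes kept their direction in every one of 13 alternative fits that tested them. These fits share the libraries that chose the genes, which all went one way in every pair, so a turn of direction was hardly possible. Called in all 13 were KH.C2.125, higher in A5.1, and KH.C3.103, higher in a5.3.

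KH.C2.125 was the gene with the largest A5.1 excess among those averaging 5 CPM or more there. In A5.1 it stood at 18.2, 69.2, 60.2, 32.4 and 67.6 CPM in embryos 1, 3, 4, 5 and 6. In a5.3 it stood at 1.96, 4.28, 1.09, 2.59 and 0.916 CPM. The lowest A5.1 sample, embryo 1, lay above the highest a5.3 sample, and the 7 single A5.1 cells (18.3 to 69.7 CPM) did not overlap the 7 a5.3 cells (0 to 6.5 CPM). The fitted log2 fold change was 4.53 ± 0.41 (SE), with an adjusted p of 0.00173 by edgeR.

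KH.C11.577 was next in A5.1, at a far lower level. It had 12.1, 11.8, 4.51, 3.20 and 3.53 CPM in A5.1 against 0.461, 0, 0.657, 0.316 and 0.708 CPM in a5.3, in the same order of embryos. The groups did not overlap, and the a5.3 values rest on 32 counts in all. The log2 fold change was 3.74 ± 0.74 with an adjusted p of 0.0426 by edgeR. The call was lost in 5 of the 12 alternatives that tested the gene. These were the 5 blocked fits that left out 1 embryo each.

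KH.C9.541 was the gene with the largest a5.3 excess by the same rule. It had no count in the A5.1 samples of embryos 1, 3, 4 and 6, where a count of 0 allows up to 0.404, 0.299, 0.356 and 0.156 CPM (3 counts, counting error only), and 0.729 CPM in embryo 5, where its 13 counts came almost wholly from the left cell with 12. In a5.3 it stood at 6.92, 2.54, 15.0, 17.7 and 9.99 CPM. The groups did not overlap in embryos or in single cells. The fitted log2 fold change was -6.60 ± 0.81 (adjusted p 0.00874 by edgeR), a size that depends on how the zeros are treated, and the call was lost in 2 of 12 alternatives.

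KH.C1.750 followed in a5.3, with 8.2, 1.60, 10.1, 40.0 and 16.7 CPM there and 1.89, 1.29, 0.593, 6.67 and 0.416 CPM in A5.1. Embryo 5 was highest in both cell types, and embryo 3 showed almost no difference, so the groups overlapped although a5.3 was higher in 5 of 5 pairs. The log2 fold change was -2.86 ± 0.60 with an adjusted p of 0.0464 by edgeR, and the call was lost in 6 of 12 alternatives.

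KH.C3.103, singled out after the values were seen because every alternative called it, showed a small difference that was very even over embryos. It had 234, 270, 271, 325 and 270 CPM in A5.1 against 361, 408, 402, 492 and 403 CPM in a5.3. The groups did not overlap, and the fitted fold was 1.51 (log2 fold change -0.59 ± 0.06, adjusted p 0.00318 by edgeR). In the 32-cell daughters it had 363 ± 84.5 CPM in the A line and 404 ± 35.5 CPM in the a line (SD, n = 5 embryos each), a difference that did not pass the test (adjusted p 0.548).

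**Figure D3:**
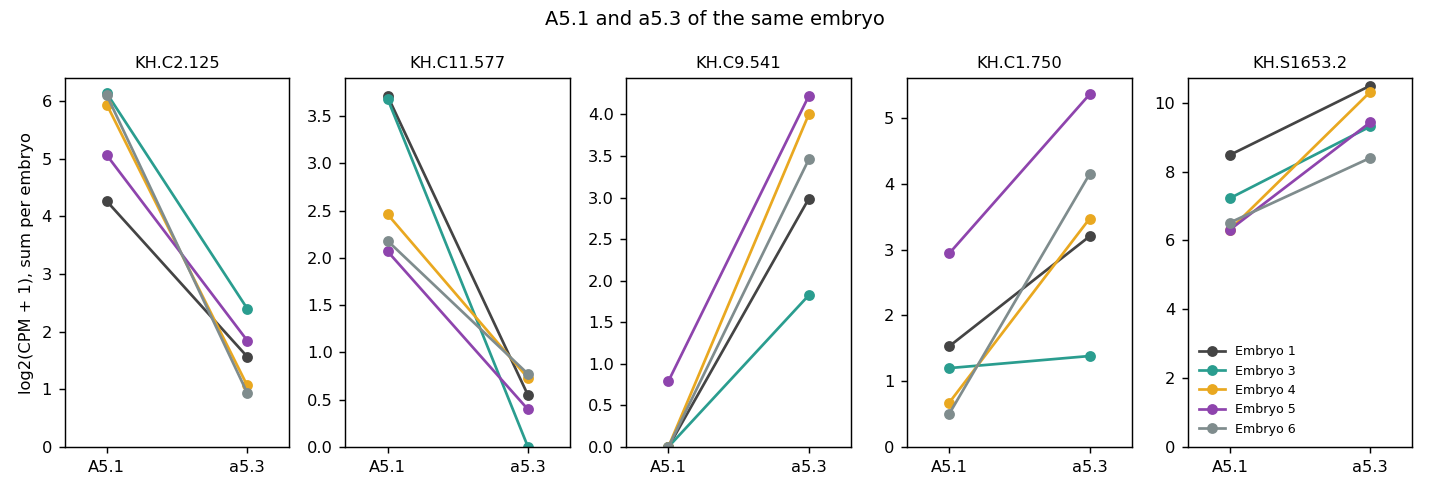
Levels of 5 genes in A5.1 and a5.3 (y axis, log2 of CPM + 1 of the embryo sum); each line joins the 2 cell types of 1 embryo. In all 5 genes the 5 lines go one way, and embryo 3 has the flattest line in KH.C1.750.

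The left and right cells of embryos 5 and 6 show how much single cells of 1 type vary within an embryo. Over all genes in that comparison, the median absolute log2 difference between left and right cells was 0.43 for A5.1 and 0.29 for a5.3 in embryo 5, and 0.23 and 0.24 in embryo 6. Between A5.1 and a5.3 on the same side it was 0.28 on the left and 0.40 on the right of embryo 5, and 0.26 and 0.25 in embryo 6. For most genes the cell type therefore added little to the difference between any pair of cells. The 8 large A5.1 genes, which were chosen from sums of these same libraries, had a median absolute log2 difference between types of 2.37 (left) and 2.93 (right) in embryo 5 and 2.76 and 3.57 in embryo 6. Between left and right A5.1 cells it was 0.38 in embryo 5 and 0.26 in embryo 6, but between left and right a5.3 cells, where these genes had few counts, it was 2.12 and 1.18. In embryo 5 the a5.3 cells thus differed from each other nearly as much as the types did on the left. All 8 genes were higher in A5.1 on all 4 sides. Of the large a5.3 genes, 11 of the 14 in that comparison were higher in a5.3 on all 4 sides.

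The small differences were less well parted from the variation between left and right cells. The called direction held on all 4 sides for 69 of the 90 genes higher in a5.3 and for 9 of the 15 genes higher in A5.1. In embryo 5 the right A5.1 cell had the lowest summed level of the 90 genes of all 14 cells, 9292 CPM, against 12074 CPM in the left A5.1 cell, and 80 of the 90 were lower in the right than in the left cell. Their median absolute log2 difference between these A5.1 cells was 0.52, larger than the 0.29 between A5.1 and a5.3 on the left side. In embryo 6 the left and right A5.1 cells differed by 0.13 and the types by 0.48 on both sides. All 7 A5.1 cells, from 9292 to 12074 CPM, still lay below all 7 a5.3 cells, from 13946 to 17926 CPM, a separation that the choice of the genes favours. Why these genes moved between A5.1 cells of 1 embryo was not tested.

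The daughters of these cells at the 32-cell stage, from other libraries, were compared to see which differences were present a division later. A6.1 and A6.2 were summed per embryo, as were a6.5 and a6.6, with 5 embryos in each line. Samples held 10411697 to 32963648 counts in the A line and 13874373 to 41277071 in the a line. A-line embryo 5 was left out because its A6.1 library stood apart, and the lines were not paired, since the labels do not say that equal embryo numbers mark 1 embryo there. Of 11166 tested genes, 1232 (11%) passed an adjusted p of 0.05, with 680 (6.09%) higher in the A line and 552 (4.94%) higher in the a line. With A-line embryo 5 kept there were 721, and leaving out a-line embryo 1, 2, 3, 4 or 5 gave 725, 842, 563, 791 or 664. Leaving out A-line embryo 1, 2, 3, 4 or 6 gave 707, 778, 1509, 1197 or 1113.

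Of the 128 genes called at 16 cells, 14 were called the same way at 32 cells, and all 14 had a difference of 2-fold or more at 16 cells. Of the 8 large A5.1 genes, 7 were called higher in the A line at 32 cells, beside 6.09% of all tested genes, and their median log2 fold change there was 3.39 over the 8. Of the 15 large a5.3 genes, 7 were called higher in the a line, beside 4.94% of all tested genes, 13 had the same sign and their median log2 fold change toward the a line was 1.36. None of the 23 was called the other way. These counts depend on the limit: with the classes parted at 1.5-fold, 7 of 63 a5.3 genes were called the same way and 3 the other way, and at 4-fold 4 of 7 and 0, while the A5.1 genes gave 7 of 9 and 6 of 7. Of the 105 small differences, 0 were called the same way and 6 the other way by edgeR, and 43 had the same sign. The 6 opposite calls were near the share of all tested genes called in one direction, 6.09% or 4.94%. By DESeq2, 4 of the 90 genes higher in a5.3 were called the same way and 7 the other way. The 7 large a5.3 genes became 4 when any 1 a-line embryo or A-line embryo 2 was left out, and 3 with A-line embryo 5 kept. The 6 opposite calls, 4 among genes higher in a5.3 and 2 among genes higher in A5.1, became 0 to 3 and 0 to 1 with 1 embryo left out. Without A-line embryo 3, 3 of the 90 and 2 of the 15 small differences were called the same way.

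The 32-cell comparison was less precise for the small differences, which bears on these counts. The median SE of the log2 fold change of the 90 genes higher in a5.3 was 0.11 at 16 cells and 0.18 at 32 cells. A difference of their 16-cell median size, 0.59, could easily miss a call at 32 cells, so the count of 0 does not show that these differences were gone. Their median log2 fold change toward the a line at 32 cells was -0.07, and in 69 of the 90 the 32-cell value plus 2 SE lay below the 16-cell value. For the 15 higher in A5.1 these values were -0.18 and 9. Genes picked for passing a threshold tend to have fitted values above their true size, which this count does not correct.

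Gene lists drawn from other fits of the 16-cell data gave the following counts with the same 2-fold limit. Without embryo 5, 10 large and 18 small differences were called at 16 cells, of which 5 and 0 respectively were called the same way at 32 cells. Without the embryo block the lists held 6 and 9 genes, of which 5 and 0 were called the same way. The longest list, by DESeq2, held 11 large and 916 small differences, of which 4 (36.4%) and 51 (5.57%) were called the same way and 0 and 50 the other way. With 1 library per embryo and type, 11 of 37 large differences (29.7%) and 18 of 291 small ones (6.19%) were called the same way. The other way were 0 and 15. In both lists the shares of small differences were near those of all tested genes at 32 cells. Those were 6.09% called higher in the A line and 4.94% in the a line.

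**Figure D4:**
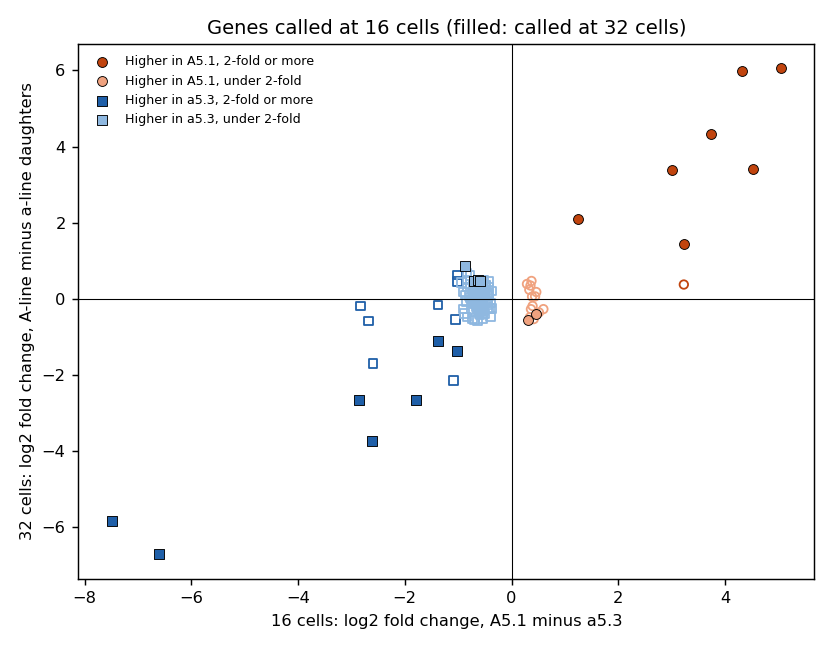
Log2 fold change between the lines at 32 cells (y axis, A-line minus a-line daughters) against that at 16 cells (x axis, A5.1 minus a5.3) for the 128 genes called at 16 cells; filled symbols were called at 32 cells. Of 23 dark symbols 14 are filled and lie where both stages have the same sign, while the 105 pale ones gather around 0 on the y axis.

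KH.C2.125 and KH.C11.577 had the largest A-line excess among genes called the same way at both stages with at least 5 CPM, ranked by the 32-cell fold change. KH.C2.125 had 155, 84.4, 124, 129 and 130 CPM in the A-line daughters of embryos 1, 2, 3, 4 and 6, and 9.84, 7.28, 6.34, 4.31 and 30.4 CPM in the a-line daughters of embryos 1 to 5. The lines did not overlap, and the log2 fold change was 3.40 ± 0.47 (adjusted p 0.00220 by edgeR). KH.C11.577 had 5.45 to 16.1 CPM in the A line, with a median of 8.51, and 0 to 1.77 CPM in the a line (log2 fold change 4.33 ± 0.90, adjusted p 0.0124). Both calls held in all 17 alternatives of the 32-cell fit.

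KH.C9.541 had the largest a-line excess among the genes called at both stages by that rule. It had 52.0, 62.7, 104, 112 and 55.0 CPM in the a-line daughters of embryos 1 to 5 and 0.748, 1.58, 0, 1.36 and 0 CPM in the A-line daughters. The lines lay far apart, with a log2 fold change of -6.71 ± 0.82 (adjusted p 0.000991 by edgeR), and all 17 alternatives called it. KH.S1653.2 was second by its 32-cell fold change, ahead of KH.C1.750, whose 16-cell one was larger. At 16 cells it had 357, 149, 78.6, 78.5 and 90.7 CPM in A5.1 against 1446, 634, 1277, 691 and 337 CPM in a5.3, so that a5.3 was higher in every embryo although the groups overlapped (log2 fold change -2.61 ± 0.29, adjusted p 0.0105 by edgeR). That call was lost in 6 of 13 alternatives, with an adjusted p of 0.135 without the embryo block and 0.181 with 1 library per embryo and type. Its level differed widely between cells of 1 type: in embryo 6 the left a5.3 cell had 759 CPM and the right one 51.5 CPM. At 32 cells it had 17.5 ± 20.3 CPM in the A line and 225 ± 143 CPM in the a line (SD, n = 5 embryos each, adjusted p 0.0385 by edgeR), a call lost in 9 of 17 alternatives, and in 1 more, with A-line embryo 5 kept, its log2 fold change turned to 3.49 (adjusted p 0.323).

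KH.S655.3 was the single large A5.1 gene that was not called at 32 cells, and was singled out for that after its values were seen. It had 15.4, 11.7, 6.76, 3.81 and 4.57 CPM in A5.1 against 1.96, 0.669, 0.547, 1.71 and 0.167 CPM in a5.3, without overlap (log2 fold change 3.23 ± 0.59, adjusted p 0.0295 by edgeR). The call was lost in 6 of 12 alternatives, with an adjusted p of 0.0807 without the embryo block and 0.0746, 0.0753, 0.126 and 0.152 without embryo 3, 6, 4 and 1. At 32 cells it had 19.4 ± 8.03 CPM in the A line and 14.9 ± 3.26 CPM in the a line (SD, n = 5 embryos each), a log2 fold change of 0.38 ± 0.32 (adjusted p 0.468). The a-line level stood above a5.3, while the A-line level stood above A5.1 by less. In 1 fit of both stages, added after the values were seen, the lineage difference fell by 2.86 on the log2 scale (adjusted p 0.0129 by edgeR, beside 725 genes called of 11373), a test that shares the 16-cell libraries used to choose the gene.

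The 6 genes called in opposite directions at the 2 stages all had small differences, and as given above their number was near the background of 32-cell calls. KH.C4.756 had the largest stage difference among them, from 37.0 ± 3.51 CPM in A5.1 against 68.3 ± 14.9 CPM in a5.3 to 108 ± 25.1 CPM in the A-line and 58.8 ± 12.7 CPM in the a-line daughters (SD, n = 5 embryos each). The groups did not overlap at either stage, and the edgeR adjusted p was 0.0197 at 16 cells and 0.0177 at 32 cells. Its 16-cell call was lost in 6 of 13 alternatives, among them the fit without the embryo block (adjusted p 0.0514) and that without embryo 1 (0.102), and its 32-cell call in 3 of 17. KH.C10.360, KH.C9.458 and KH.C9.24 changed in the same order, with log2 fold changes of -0.71, -0.64 and -0.58 at 16 cells and 0.47, 0.49 and 0.48 at 32 cells. KH.S973.1 and KH.L153.117 went the other way, with 0.31 and 0.45 at 16 cells and -0.55 and -0.39 at 32 cells. The 32-cell adjusted p of these 5 genes lay between 0.0393 and 0.0490, and each such call was lost in 10 to 14 of 17 alternatives. Their 16-cell calls were lost in 5 to 7 of 13. All 6 were named after their values were seen, because their directions differed.

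The large differences of the 32-cell stage were mostly not called a division earlier. Of 476 genes called at 32 cells with a fold of 2 or more, 225 were higher in the A line and 251 in the a line. At 16 cells 101 of them were too scarce in both cells to be tested and 375 were tested. Of the 476, 14 (2.94%) were called the same way and 0 the other way. The 16-cell fit called few genes of any kind, 0.232% of those tested as higher in A5.1 and 1.06% as higher in a5.3. A missing call there does not show that a difference was absent. The genes with the largest differences at 32 cells by the naming rule were all among those too scarce. KH.C11.315 had 122 counts over the A5.1 samples and 0 over the a5.3 samples, and reached 2.82 to 32.4 CPM in the A line at 32 cells, with a median of 10.2, and at most 0.142 CPM in the a line (adjusted p 0.00232 by edgeR). Its 2 A-line daughters were unlike, at 24.3 ± 21.9 CPM in A6.1 (SD, n = 5) and 2.19 ± 1.90 CPM in A6.2 (n = 6). In A5.1 it had 1.66 CPM (values scaled over all cell types). KH.C12.14 had 119 counts in A5.1 but 18 in a5.3, and later 24.2 ± 8.90 CPM in the A line and 0.272 ± 0.255 CPM in the a line (SD, n = 5 embryos each, adjusted p 0.000276 by edgeR).

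On the animal side, KH.S1904.1 had 5 counts in A5.1 but 28 in a5.3. At 32 cells it had 18.6, 39.1, 30.8, 35.2 and 14.7 CPM in the a line and no count in any A-line sample (adjusted p 8.92e-05 by edgeR). KH.S1208.1 had 0 and 11 counts at 16 cells, and at 32 cells 1.78 to 17.5 CPM in the a line, with a median of 4.17, and no count in the A line (adjusted p 0.00309 by edgeR). A count of 0 in these A-line samples allows 0.0934 to 0.292 CPM (3 counts). All 4 genes thus had more counts, pooled over embryos, at 16 cells in the line where they were later higher, though at 16 cells they were not tested. The a5.3 counts of KH.S1208.1 came from a single embryo (0.468 CPM there, against a mean of 0.0937 CPM over embryos). The A5.1 counts of KH.S1904.1 also came from a single embryo (0.286 CPM, mean 0.0572 CPM).

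Set beside the mother cell, the classes also differed in where their levels stood later, in values scaled over all 19 cell types that share the 16-cell libraries with the choice of the genes. The mean over A6.1 and A6.2 was above A5.1 for 8 of 8 large A5.1 genes, by 2-fold or more for 6, with a median ratio of 2.66. Of all tested genes, 4938 of 9935 stood above the mother in the A line, and 994 by 2-fold or more. For the large a5.3 genes the mean over a6.5 and a6.6 was above a5.3 in 6 of 15, with a median ratio of 0.948, beside 4783 of 9935 tested genes and 0.989 in the a line. Among the small differences, the daughters stood above the mother in 1 of 15 A5.1 genes (median ratio 0.759) and in 31 of 90 a5.3 genes (0.959). All 8 large A5.1 genes had their highest mean in an A-line type, and none in A5.1 itself. The highest mean also lay in the own line for 13 of 15 small A5.1, 11 of 15 large a5.3 and 46 of 90 small a5.3 genes. The share over all tested genes was not taken, and the choice of the genes favours their own line.

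The 4 named genes kept or lost their line in different ways at later stages, described here without a test. KH.C2.125 stood between 149 and 233 CPM in A7.2, A7.3 and A7.4 and at 9.16 and 8.12 CPM in a7.10 and a7.11. At 112 cells it had 63.5 ± 13.2 CPM in A8.5 and 167 ± 88.4 CPM in A8.7 (SD, n = 5 each), against 7.56 in a8.19 and 12 in a8.22 (n = 4 each). At the neural plate stage it was at 184 ± 59.1 CPM in A9.13+A9.14 (SD, n = 2), and at 80.0 ± 54.8 in a9.43+a9.44 and 27.1 ± 26.8 in A9.9+A9.10 (n = 3 each), where the lines no longer parted.

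KH.C11.577 did not stay with the A line. At 64 cells it had 79.9 ± 14.7 CPM in A7.2 and 88.5 ± 14.8 in A7.3 (SD, n = 4 each), but also 49.7 ± 24.6 in a7.10 (n = 8), with 1.47 ± 2.60 in a7.11 (n = 6). In A7.4 it had 25.7 ± 47.4 CPM (n = 4), over a range of 0.470 to 96.8 CPM. At 112 cells its highest mean was in a8.19, at 84.7 ± 22.6 CPM, against 5.85 ± 9.12 in a8.22 (n = 4 each). By these means the gene stood high in the neural-side a cells a7.10 and a8.19 and low in the epidermal-side a cells.

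KH.C9.541 stayed mostly on the animal side, with 44.0 ± 7.75 CPM in a7.10 (SD, n = 8) and 94.4 ± 22.9 in a7.11 (n = 6), and 0.713 ± 0.977 in A8.7 (n = 5). A9.13+A9.14 was the exception, at 68.3 ± 29.3 CPM (n = 2). KH.C1.750 had 25.9 and 33.6 CPM in a6.5 and a6.6, had 4.72 in a7.10 and 3.66 in a7.11, and stood at 51.2 and 40.8 CPM in a8.19 and a8.22.

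**Figure D5:**
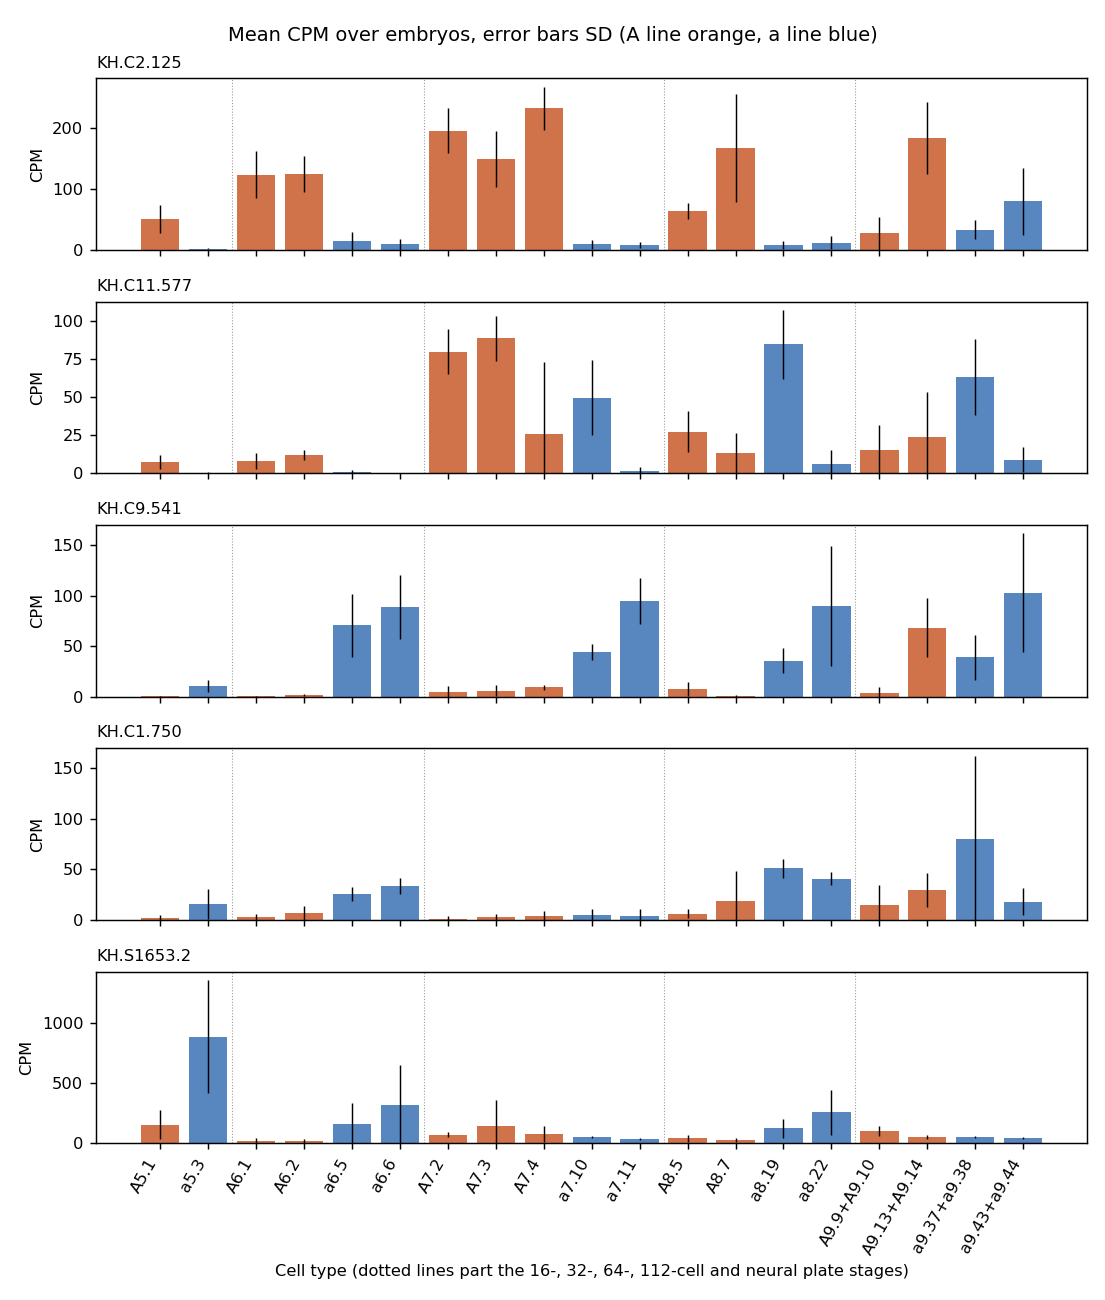
Mean CPM of 5 genes (y axes, linear from 0) in all 19 cell types from the 16-cell to the neural plate stage (x axis); orange bars are A-line and blue bars a-line types, and error bars are the SD over embryos (n = 2 to 8). KH.C2.125 is high in A-line types, KH.C9.541 in a-line types, and KH.C11.577 is high in A7.2 and A7.3 and in a7.10 and a8.19.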

How the data were processed

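The authors deposited raw read counts for 15287 KH gene models in 133 libraries, without normalization. Each cell's cDNA was amplified by template switching and tagmented before single-end sequencing, per the labels' protocols. The submitters' processing notes name STAR 2.7.10a. Not given in the sources used here are the counting program, genome build, annotation and strand setting, so paralogs and overlapping genes are uncertain. Reads carry no molecular identifiers, and limits from counts cover counting error only. All columns were matched to samples by name.

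Counts were summed per embryo and type and tested with edgeR 4.0.16 (R 4.3.3; quasi-likelihood, TMM, filterByExpr, Benjamini-Hochberg adjustment over all tested genes), tested on simulated data. The 16-cell fit had the embryo as a block, because both types carry the same embryo numbers. Deviations of same-numbered samples correlated with r of 0.181, 0.0920, 0.159, 0.667 and 0.218 (embryos 1, 3, 4, 5, 6), against a mean of -0.0616 and a highest value of 0.107 between embryos. No libraries agreed within sampling noise (lowest chi-square per gene 12.6). Alternatives were the unblocked fit, RLE factors, other filters, DESeq2 1.42.0, limma 3.58.1 (voom), 1 library per embryo, and each embryo left out.

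Named genes are the first 2 per direction by fold change (for both stages together, by the 32-cell one) among called genes averaging 5 CPM or more on the higher side, with all pairs one way (at 32 cells, no overlap). The comparison, design and lists were chosen with earlier results of these data known. Lists of regulators and markers by symbol could not be applied, since 0 identifiers matched the reference table.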

Additional observations from a re-analysis of the deposited data

Results flagged for a closer look

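Among named genes, 7 of 60 groups of embryos held a sample far from the others, where chance flags about 1 group in 20. In A5.1 these were KH.C9.541 in embryo 5 (0.729 CPM, with 0 in the others), KH.C1.750 in embryo 5 (6.67 CPM), KH.S1653.2 in embryo 1 (357 CPM) and KH.C10.360 in embryo 5 (441 CPM, against 183 to 203 in the others). In the a-line daughters at 32 cells these were KH.C2.125 in embryo 5 (30.4 CPM), KH.C11.577 in embryo 4 (1.77 CPM) and KH.C11.315 in embryo 5 (0.142 CPM). Of the 4 in A5.1, 3 fell in embryo 5, the embryo that stood apart in library distances.

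The lineage difference at 32 cells minus that at 16 cells passed an adjusted p of 0.05 (edgeR, 1 fit of both stages) for 8 named genes. On the log2 scale it was 1.74 for KH.C4.756, 1.18 for KH.C10.360, 1.13 for KH.C9.458 and 1.06 for KH.C9.24, which moved toward the A line. It was -0.86 for KH.S973.1, -0.85 for KH.L153.117, -2.86 for KH.S655.3 and -9.27 for KH.S1904.1, which moved toward the a line. The value of KH.S1904.1 rests on A-line samples at 0 and depends on the prior count, so it is no bound. These genes were chosen from the separate fits of the same libraries.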

How the results depend on the processing

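At 16 cells, the 128 calls (23 higher in A5.1, 105 higher in a5.3) became 15 (3 and 12) without the embryo block, and the other fits gave 118 (23 and 95) with RLE factors, 321 (105 and 216) without a filter, 221 (44 and 177) with a stricter filter, 927 (428 and 499) in DESeq2, 287 (67 and 220) in limma voom, 328 (120 and 208) with 1 library per embryo and type, and 27 (4 and 23) without both embryo 5 and the block, which was added after seeing the data. Without the embryo block all 15 calls were among the 128, and by voom all 128 were called. DESeq2 gave no adjusted p for 2697 genes, among them 14 of the 23 large differences. Leaving out 1 embryo gave 4 to 49 calls, 1 to 4 higher in A5.1 and 3 to 45 higher in a5.3. The share of calls higher in A5.1 ran from 5.26% to 46.2%, so the excess of a5.3 calls was not fixed in size.

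At 32 cells, the 1232 calls (680 and 552) became 721 (362 and 359) with A-line embryo 5, 332 (158 and 174) for A6.1 against a6.6 and 2109 (1104 and 1005) by DESeq2. Leaving out 1 embryo gave 563 to 1509 calls, 279 to 796 higher in the A line and 284 to 713 in the a line. The direction of KH.S1653.2 turned with A-line embryo 5, to 3.49 (adjusted p 0.323).

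Of the large a5.3 genes, 7 were called the same way at 32 cells, but 3 with A-line embryo 5, 4 of the 7 genes past 4-fold, and 4 to 8 when 1 embryo was left out. Parting the classes at 1.5-fold or 4-fold was added after seeing the data. Of the small a5.3 differences, 0 were called the same way, but 5 for A6.2 against a6.5, 4 by DESeq2, 1 by voom, 3 with classes parted at 4-fold, and 0 to 3 when 1 embryo was left out. The 4 called the other way became 0 with A-line embryo 5 and for A6.2 against a6.5, 2 for A6.1 against a6.6 and with RLE factors, 1 without a filter, 7 by DESeq2, 1 with classes parted at 1.5-fold, and 0 to 3 with 1 embryo left out. At 1.5-fold, 3 large a5.3 genes were called the other way. Of the small A5.1 differences, 0 were called the same way, but 1 with classes parted at 4-fold and 0 to 2 with 1 embryo left out. The 2 called the other way became 0 with A-line embryo 5 and for A6.1 against a6.6, 1 for A6.2 against a6.5 and without a filter, and 0 to 1 with 1 embryo left out. The count of large A5.1 genes called the same way at 32 cells, 7 of 8, was 6 or 7 with 1 embryo left out. At 16 cells, the number of large A5.1 genes called was 8 as reported, 3 without the embryo block, 15 without a filter, 1 in DESeq2 and 1 to 3 with 1 embryo left out. The cause of these changes was not tested. Depth limits the scarce genes: a count of 0 in 1 embryo allows 0.125 to 0.404 CPM at 16 cells.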
